A study of Mus musculus with 6 samples.

Results

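The genes of the moving core of the motile cilium were followed in whole lungs of mouse embryos with and without *Tnrc6a*. These 10 genes were the radial spoke genes *Rsph1*, *Rsph3a*, *Rsph4a* and *Rsph9* and the central apparatus genes *Spef1*, *Spef2*, *Hydin*, *Spag6*, *Spag16* and *Spag17*. They were grouped by their place in the axoneme, with earlier results of these data known. Of the 10 genes, 9 had a probe set annotated to them alone, among 19938 genes measured in this way, and together they had 30 of the 21789 probe sets with a single gene symbol. *Rsph3a* was represented only by 2 probe sets that are also annotated to its near copy *Rsph3b*, so no value is given for it.

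The study compared 3 wild type (WT) lungs with 3 *Tnrc6a* null lungs, all at E18.5, late in gestation, and each from a single embryo of C57Bl/6 background. The null embryos were *Tnrc6a* gt/gt, with a gene trap that carries β-galactosidase on both alleles of the gene, a change present in every tissue and not in the airway alone. *Tnrc6a* encodes GW182, a protein that acts with Argonaute in silencing by microRNAs. Total RNA of the whole lung was hybridised to a whole-transcript gene array.

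The axoneme of most motile cilia has a ring of outer doublet microtubules around a pair of single microtubules. The pair and the projections on it form the central apparatus, and radial spokes reach inward from each doublet to contact these projections, a contact that helps to coordinate the dynein motors that bend the cilium. In the lung these structures are found in the multiciliated cells (MCCs) of the airway epithelium, and loss of spoke or central apparatus proteins is a known cause of primary ciliary dyskinesia.

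Promoter sequences of the genes are shown because RFX factors and FOXJ1, a forkhead factor, are known regulators of motile cilia genes. RefSeq promoters on GRCm38.p6, running from 250 bases before to 50 bases after the start of the gene, were found for 8 of the 10 genes and not for *Rsph1* or *Rsph4a*. The single RFX site GTTGCC, searched on both strands, was in 4 of these 8 promoters (*Hydin*, *Spag16*, *Spag6* and *Spef2*), and in 12.5% of the 32851 promoters in the table. The paired RFX site, GTTNCC and GNAAC with 3 bases between them and able to overlap the single site, was in 2 of the 8, *Hydin* and *Spag16*, and in 0.804% of all promoters. The forkhead site TGTTTAC was in 0 of the 8 and in 3.65% of all promoters. The stretches of 80 bases that hold the RFX matches before the start of *Hydin*, *Spag16* and *Spag6* are given on the plus strand of GRCm38.p6, with the matched bases in capitals.
*Hydin*, chr8:110266897-110266976: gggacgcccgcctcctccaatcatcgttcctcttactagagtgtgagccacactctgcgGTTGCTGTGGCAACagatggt
*Spag16*, chr1:69826828-69826907: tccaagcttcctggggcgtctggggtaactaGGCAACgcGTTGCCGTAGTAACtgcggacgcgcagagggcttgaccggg
*Spag6*, chr2:18698942-18699021: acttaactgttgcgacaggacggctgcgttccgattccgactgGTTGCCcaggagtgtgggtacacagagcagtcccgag
These matches describe letters and not binding, which was not measured.

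Signals are given on the log scale of the deposited values, which the labels call log2. The base could not be settled from the values, so differences, always *Tnrc6a* null minus WT, are given on this scale and are not turned into folds. The 6 array medians lay between 4.98 and 5.03, and single values between 0.29 and 12.49. The array files give no signal over background, so a gene with a low value cannot be called absent or present. *Tnrc6a* itself was 7.38, 7.13 and 7.18 in the WT lungs and 5.45, 5.04 and 5.40 in the null lungs, a difference of -1.93 (SE 0.13, limma adjusted p = 0.0031, and 0.055 without WT replicate 3). It was the only gene of the array past the adjusted threshold of 0.05, which is 0.00502% of the genes tested. The lung markers were high in every lung, with *Sftpc*, a surfactant protein gene of alveolar type II cells, between 11.64 and 11.82. WT replicate 1 and null replicate 3 resembled each other, their deviations from the genotype means being correlated across genes at r = 0.54 (genes are not independent replicates). The fits were therefore also run without them, while means over several genes in each lung keep all lungs. Whole lung was measured and MCCs are a minority of its cells, so fewer MCCs and less RNA in each MCC cannot be told apart.

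*Rsph1* was the single radial spoke or central apparatus gene of the 9 measured whose null lungs all lay below all WT lungs, as they did for 5.51% of all genes. For 4.67% of all genes, and for none of the members, every null lung lay above every WT lung. No member passed the adjusted threshold. Of the 9 measured members, 7 differed by less than 0.1 between the genotypes. The exceptions were *Rsph1*, at -0.46 (SE 0.10), and *Spef2*, at -0.30 (SE 0.23).

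*Rsph1*, a component of the radial spoke head, was 5.71, 5.73 and 5.70 in WT replicates 1 to 3 and 5.12, 5.25 and 5.40 in null replicates 1 to 3. The WT lungs lay within 0.03 of each other and the null lungs within 0.28, and every null lung was below every WT lung. The means were 5.71 ± 0.015 and 5.26 ± 0.14 (SD, n = 3 each). The difference of -0.46 had a 95% interval of -0.69 to -0.22. With limma its unadjusted p was 0.0018, rank 28 of the 19938 genes, and its adjusted p was 0.89. Over the 15 alternative settings and sets of lungs the difference stayed between -0.53 and -0.39, with an unadjusted p of 0.00027 to 0.0089 and an adjusted p of 0.11 to 1.00. An unadjusted p under 0.05 was reached by 5.42% of all genes, and by 2.96% with a lower mean in the null lungs and 2.46% with a higher one. Of these genes 54.7% were thus lower, a share that was 77.2% with median centring of the arrays and ran from 31.6% to 74.2% with a lung left out. *Rsph1* was the only 1 of the 9 members to reach it.

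The other spoke head genes showed no difference beyond the spread of the lungs. *Rsph4a*, which encodes another spoke head protein, was 6.36, 6.31 and 6.30 in the WT lungs and 6.32, 6.26 and 6.16 in the null lungs (difference -0.08, 95% interval -0.27 to 0.12, limma adjusted p = 0.93). The genotypes overlapped, with the lowest value in null replicate 3. *Rsph9*, a spoke head gene too, was 6.15, 6.25 and 6.07 in the WT lungs and 6.13, 6.23 and 6.15 in the null lungs (difference 0.01, 95% interval -0.19 to 0.21, limma adjusted p = 0.99). It was the single member with a higher mean in the null lungs, and its sign turned with the centring of the arrays. The intervals of both genes reach no lower than -0.27, but a p that misses the threshold does not show equal levels.

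**Figure D1:**
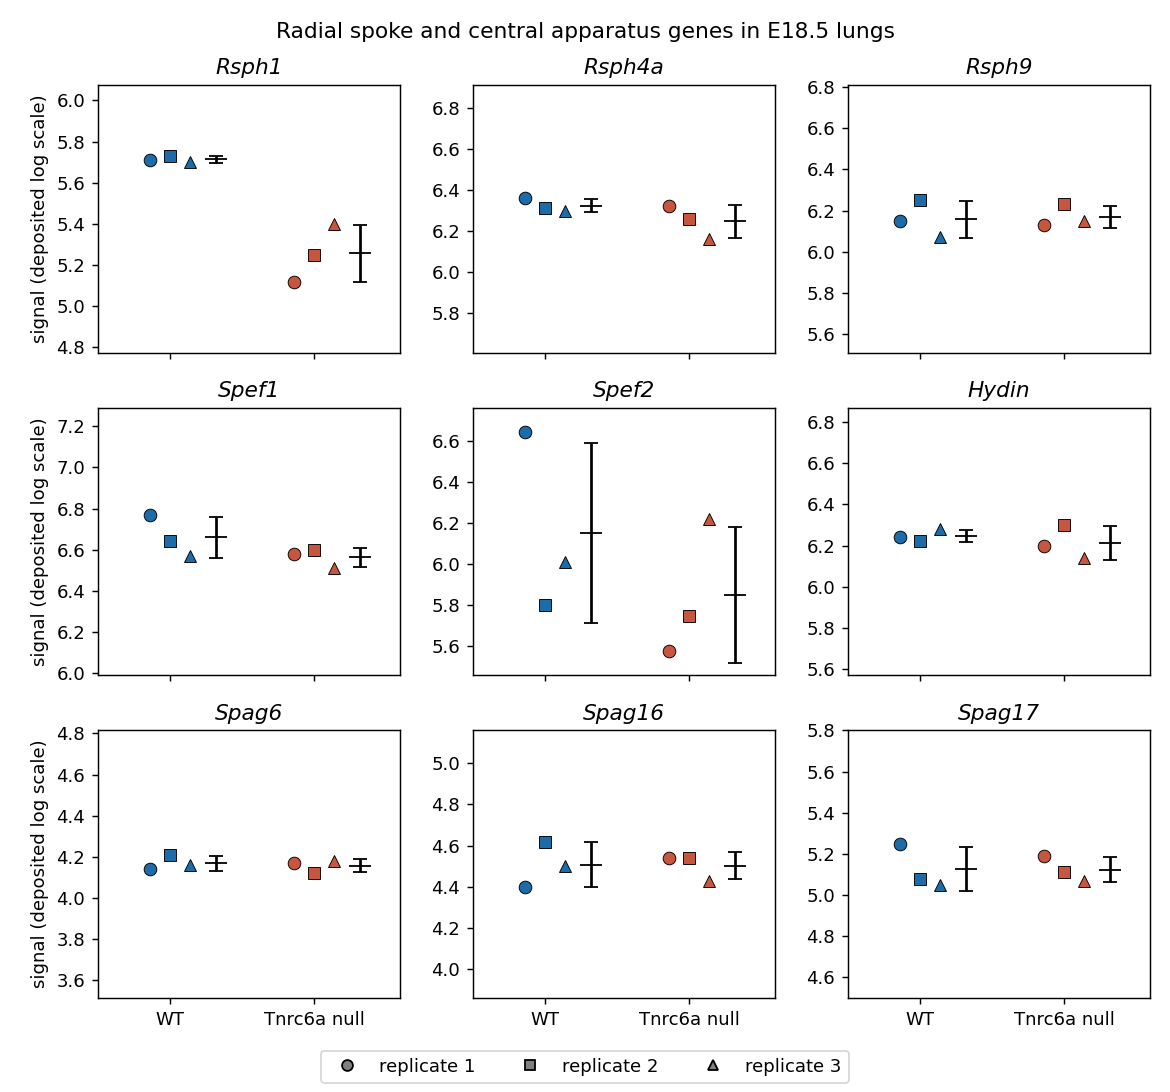
Deposited log signal (vertical axis) of the 9 measured radial spoke and central apparatus genes in each of the 6 lungs, with WT and *Tnrc6a* null lungs as points and the genotype means as lines. The WT and null points are apart for *Rsph1* (5.70 to 5.73 against 5.12 to 5.40) and overlap for the other 8 genes.

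Of the central apparatus genes, *Spef1* was 6.77, 6.64 and 6.57 in the WT lungs and 6.58, 6.60 and 6.51 in the null lungs. SPEF1 is a microtubule-binding protein needed for the central pair. Its difference was -0.10 (95% interval -0.29 to 0.10, limma adjusted p = 0.91), and the genotypes overlapped through WT replicate 3.

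*Hydin*, a very large protein of a central pair projection, was 6.24, 6.22 and 6.28 in the WT lungs and 6.20, 6.30 and 6.14 in the null lungs. The highest and the lowest of the 6 values were both from null lungs, and the difference was -0.03 (95% interval -0.23 to 0.16, limma adjusted p = 0.97).

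*Spag16* and *Spag17*, whose proteins interact in the central apparatus, each differed by -0.003 between the genotypes. *Spag16* was 4.40, 4.62 and 4.50 in the WT lungs and 4.54, 4.54 and 4.43 in the null lungs (95% interval -0.27 to 0.26, limma adjusted p = 1.00). *Spag17* was 5.25, 5.08 and 5.05 in the WT lungs and 5.19, 5.11 and 5.07 in the null lungs (95% interval -0.24 to 0.23, limma adjusted p = 1.00). In both genes the null values lay inside the range of the WT values.

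*Spag6*, a central apparatus gene with a close paralog on the array, *Spag6l*, was 4.14, 4.21 and 4.16 in the WT lungs and 4.17, 4.12 and 4.18 in the null lungs (difference -0.01, 95% interval -0.27 to 0.24, limma adjusted p = 0.99). Its genotypes overlapped. The array annotation, brought to current symbols, gives each paralog a probe set of its own, and *Spag6l* was named after its values were seen. *Spag6l* was 6.70, 6.73 and 6.75 in the WT lungs and 6.79, 6.81 and 6.76 in the null lungs, with each null lung above each WT lung by a small margin (difference 0.06, SE 0.07, limma adjusted p = 0.93).

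*Spef2*, whose protein belongs to a central apparatus projection, varied more between lungs than any other member. Its brightest probe set, which stands for the gene, was 6.64, 5.80 and 6.01 in the WT lungs and 5.58, 5.75 and 6.22 in the null lungs. WT replicate 1 was the highest lung and null replicate 3 the next, so the genotypes overlapped. The means were 6.15 ± 0.44 and 5.85 ± 0.33 (SD, n = 3 each), a difference of -0.30 (95% interval -0.82 to 0.22, limma adjusted p = 0.90). The difference moved by more than 1.5 times with 4 of the 6 lungs. With WT replicate 1 left out it was -0.055, with null replicate 1 -0.165, with WT replicate 2 -0.475 and with null replicate 3 -0.485. The mean of its probe sets gave -0.156. Without WT replicate 1 and null replicate 3 together it was -0.24, and the remaining null lungs lay below the remaining WT lungs.

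The array holds 22 probe sets annotated to *Spef2* alone. They share the same 6 lungs and are not replicates of the comparison. Of the 22, 18 were lower on average in the null lungs and 4 higher, with a median difference of -0.13 and a range of -0.60 to 0.18. A single probe set was lower at an unadjusted p under 0.05, a share to be read beside the 2.74% of all 21789 probe sets that were. It was also the single one whose null lungs all lay below the WT lungs, at 3.53, 2.93 and 2.95 in the WT lungs and 2.76, 2.24 and 2.60 in the null lungs. WT replicate 1 was the highest lung in 14 of the 22. Without this lung 12 of the 22 were lower, with a median difference of -0.03, and without it and null replicate 3 together 8 were lower, with a median of 0.06. The count of lower probe sets thus fell without WT replicate 1, and further without both lungs. Null replicate 3 was the lowest lung in 9 of the 22, and no count was made without it alone. The brightest probe set stayed lower, but by only -0.055 without WT replicate 1, and by -0.24 without both. The probe sets differed on null replicate 3, which was the second highest lung by the brightest probe set but the lowest on average over the 22, at -0.19 from their mean over the 6 lungs. The 10 probe sets annotated to both the RefSeq transcript and a longer mRNA (9 lower, median -0.14) and the 12 annotated only to the longer mRNA (9 lower, median -0.08) went the same way.

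**Figure D2:**
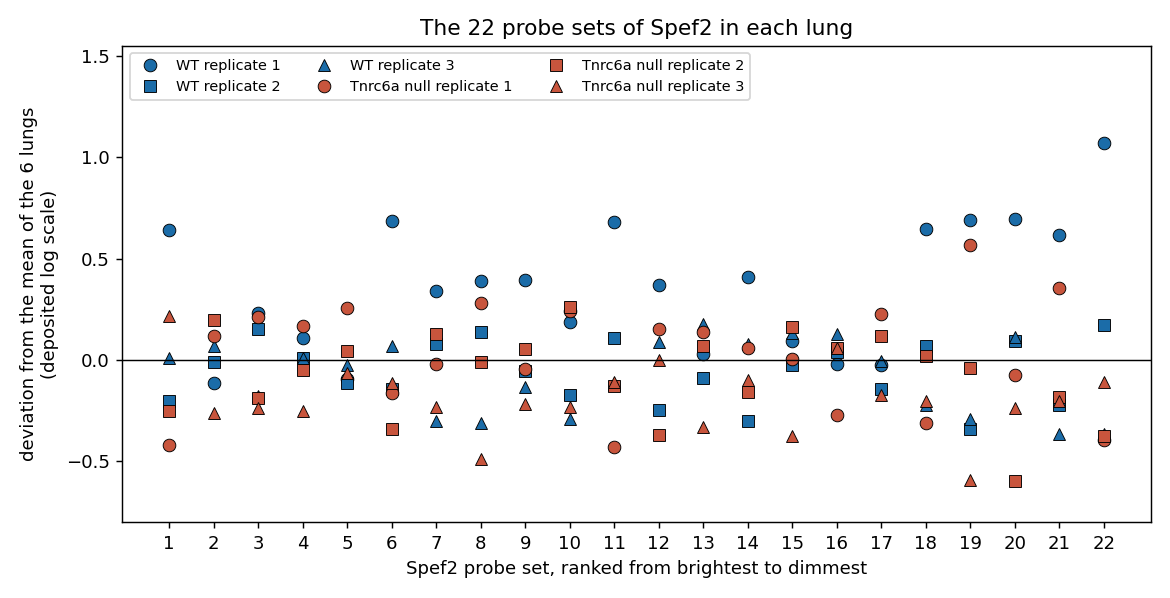
Deviation of each of the 6 lungs from their mean, on the deposited log scale, for each of the 22 probe sets annotated to *Spef2* alone. The probe sets are ranked from brightest to dimmest. WT replicate 1 is the highest lung in 14 of the 22.

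Over the group, 8 of the 9 measured members had a lower mean in the null lungs, as did 49.8% of all genes. The median difference of the members was -0.03 and that of all genes 0.00. The share of genes with a lower mean ran with the signal, from 20.6% to 71.4% between the dimmest and the brightest of 10 equal groups of genes. Of the 9 members, 6 lay above the median signal. Not the same 6 had a difference below the median of their own group. The dimmer members *Spag6*, *Spag16* and *Spag17* differed by -0.01, -0.003 and -0.003. In their groups 33.8%, 41.9% and 51.1% of genes had a lower mean. The part of the signal in the members' count was not tested. The members' count ran from 5 to 9 of 9 when a single lung was left out, and was 9 with median centring.

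**Figure D3:**
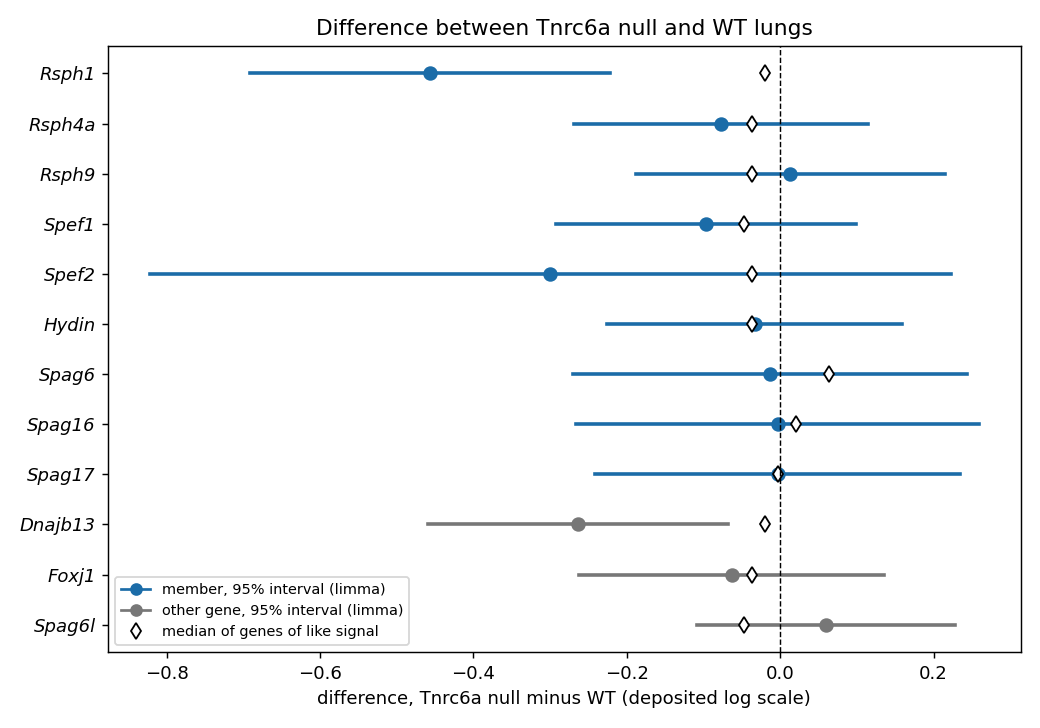
Difference, *Tnrc6a* null minus WT, on the deposited log scale for each measured member and for *Dnajb13*, *Spag6l* and *Foxj1*, with bars for the 95% interval of the limma fit. Diamonds mark the median difference of genes of like signal. The interval of *Rsph1* (-0.69 to -0.22) does not reach 0, and those of the other 8 members do. Of the genes that are not members, *Dnajb13* has an interval (-0.46 to -0.07) that does not reach 0.

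Lung by lung, the mean deviation of the 9 members from their means over the 6 lungs was 0.12, 0.03 and 0.01 in WT replicates 1 to 3 and -0.08, -0.05 and -0.03 in null replicates 1 to 3. The null lungs all lay below the WT lungs by this mean, which was not tested. *Rsph1* and *Spef2* were then left out because their differences were the largest, a choice that narrows the gap by itself. Without them the mean was 0.03, 0.04 and -0.02 in the WT lungs and 0.01, 0.01 and -0.06 in the null lungs, and the genotypes overlapped. WT replicate 1 and WT replicate 2 were each the highest lung in 4 of the 9 members, and null replicate 3 was the lowest in 3.

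The other genes of the same structures were read from longer lists. Of 13 other radial spoke genes 11 were measured. On average 5 of them were lower in the null lungs and 6 higher, and the median difference was 0.02. A single gene of the list, *Dnajb13*, a chaperone-like protein of the spoke, was lower at an unadjusted p under 0.05. *Dnajb13* was 6.02, 6.04 and 6.14 in the WT lungs and 5.83, 5.76 and 5.82 in the null lungs. Each null lung lay below each WT lung, and the difference was -0.26 (SE 0.09, 95% interval -0.46 to -0.07, limma unadjusted p = 0.014, adjusted p = 0.89). Its unadjusted p rose to 0.058 without WT replicate 3, the only alternative of 15 in which it passed 0.05. *Cfap61*, a gene of the spoke base, differed by -0.09 (SE 0.10). The remaining spoke genes of the list differed by -0.11 to 0.11.

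Of 12 other central apparatus genes, all measured, 6 were lower and 6 higher on average, none at an unadjusted p under 0.05 by limma, and the median difference was -0.003. Their differences ran from -0.11 in *Cfap46* (SE 0.11) to 0.13 in *Cfap65* and *Cfap221*. *Cfap65*, which is higher in the null lungs, reached an unadjusted p under 0.05 with array weights (limma unadjusted p = 0.04, adjusted p = 0.39) and without WT replicate 1 and null replicate 3 (limma unadjusted p = 0.035, adjusted p = 0.30).

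The neighbouring machinery of the axoneme was read in the same way. Of 9 genes of the nexin-dynein regulatory complex and the molecular ruler, which tie the doublets together and set the spacing along them, 7 were lower and 2 higher on average (median -0.07, from -0.17 in *Drc7* to 0.16 in *Gas8*). Of 21 genes of the dynein arms, the motors, 13 were lower and 8 higher (median -0.03). Their differences ran from -0.38 in *Dnah7a* (SE 0.28) to 0.19 in *Armc4* (SE 0.11). In neither list did a gene reach an unadjusted p under 0.05. Of 19 genes of intraflagellar transport, which builds cilia of all kinds, 13 were lower and 6 higher (median -0.06). The null lungs all lay below the WT lungs in *Ift122* (-0.23), *Ift43* (-0.19) and *Ift22* (-0.16), all above them in *Ift172* (0.11), and overlapped them in the other 15. In the other lists of this paragraph they lay all below in *Drc7* and all above in *Armc4*. *Ift43*, a subunit of the transport complex A, was the 1 gene at an unadjusted p under 0.05 (difference -0.19, SE 0.08, limma unadjusted p = 0.0499, adjusted p = 0.89). Its unadjusted p was above 0.05 whichever lung was left out. Among all genes, the null lungs lay all below in 5.51% and all above in 4.67%, and 49.8% had a lower mean. The share with a lower mean ran with the signal.

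Markers of MCCs were set beside the members, since the members are measured in a mixture of cells. *Foxj1*, the forkhead factor that switches on motile cilia genes, was 6.39, 6.51 and 6.59 in the WT lungs and 6.48, 6.44 and 6.38 in the null lungs (difference -0.06, SE 0.09, limma adjusted p = 0.94). Of 10 regulators of the MCC fate, *Foxj1* included, 4 were lower and 6 higher (median 0.07). Of 20 other MCC markers 7 were lower and 13 higher (median 0.03), and their mean deviation was 0.05, -0.09 and -0.02 in the WT lungs and 0.09, 0.04 and -0.08 in the null lungs, which overlapped. *Fam183b*, an MCC marker, was the 1 gene of this list at an unadjusted p under 0.05, and it was higher, at 5.84, 5.70 and 5.70 in the WT lungs and 6.11, 6.03 and 5.90 in the null lungs (difference 0.27, SE 0.10, limma unadjusted p = 0.023, adjusted p = 0.89). Its unadjusted p was between 0.062 and 0.082 in 4 of the 6 fits with a lung left out. *Tppp3*, another MCC marker, had its null lungs all below its WT lungs (difference -0.18, SE 0.09, limma unadjusted p = 0.090, adjusted p = 0.89). Its limma unadjusted p was 0.047 with median centring and 0.037 without null replicate 2. In the other alternatives its unadjusted p was above 0.05. No gene of either MCC list passed the adjusted threshold.

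*Rsph1* was also set against these markers within each lung, as a description, since it was singled out for its lack of overlap and the averages beside it differed little. Relative to the mean of the other 8 members, *Rsph1* had WT values of 0.12, 0.24 and 0.23 and null values of -0.32, -0.21 and -0.06, as deviations from the mean over the lungs. Relative to the mean of the 20 other MCC markers the WT values were 0.17, 0.33 and 0.24 and the null values -0.46, -0.27 and -0.01. Each null lung lay below each WT lung on both measures, with differences of -0.39 and -0.49. Relative to *Foxj1* the difference was -0.39, again without overlap. The mean of the other MCC markers itself differed by 0.04 (exact two-sided permutation p = 0.7, where 3 lungs against 3 allow no p below 0.1).

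Lists for other cell types gave the following values, with no gene past the adjusted threshold. Club and secretory cell markers, of which 6 of 8 were lower (median -0.22), were lowest in null replicate 3, with a mean deviation of -0.48 there and 0.16 and 0.07 in null replicates 1 and 2, while the WT lungs lay between -0.04 and 0.25. *Cyp2f2*, a club cell enzyme, was lower at an unadjusted p under 0.05 (difference -0.32, SE 0.10, limma unadjusted p = 0.012, adjusted p = 0.89). All 6 proliferation genes measured were higher on average (median 0.28). Of these, 2 were higher at an unadjusted p under 0.05 by limma, beside 2.46% of all genes. They were *Cdk1* (difference 0.30, SE 0.09, limma unadjusted p = 0.011, adjusted p = 0.89) and *Ccnb2* (difference 0.36, SE 0.14, limma unadjusted p = 0.030, adjusted p = 0.89). The mean deviation of the 6 genes was 0.32 in WT replicate 1 and 0.42 in null replicate 3, the lungs that resembled each other. It was -0.35 and -0.39 in the other WT lungs and 0.20 and -0.20 in the other null lungs. With WT replicate 1 and null replicate 3 left out, *Cyp2f2* differed by -0.255 and *Cdk1* by 0.37. All 5 basal airway cell markers were higher on average (median 0.09). Of the lists for other tissue, 7 of 10 lung epithelium genes (median -0.09) and 6 of 6 endothelium genes (median -0.15) were lower. So were 5 of 6 mesenchyme genes (median -0.11) and 5 of 6 macrophage genes (median -0.18). In this order, 1, 2, 1 and 2 genes were lower at an unadjusted p under 0.05 by limma, beside 2.96% of all genes. The 2 erythroid genes measured went either way. A lower mean was found in 49.8% of all genes, and in 71.4% of the brightest of the 10 groups by signal. The genotypes overlapped in the mean deviations of the club, proliferation, basal, lung epithelium, macrophage and erythroid lists. In the endothelium and mesenchyme lists, as in the members, the null lungs all lay below the WT lungs. The endothelium list was at 0.018, 0.105 and 0.097 in the WT lungs and -0.057, -0.025 and -0.138 in the null lungs. The mesenchyme list was at 0.087, 0.023 and 0.055 in the WT lungs and -0.03, -0.09 and -0.045 in the null lungs. The part of these values in the values of *Rsph1*, *Spef2* and *Dnajb13* was not tested.

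**Figure D4:**
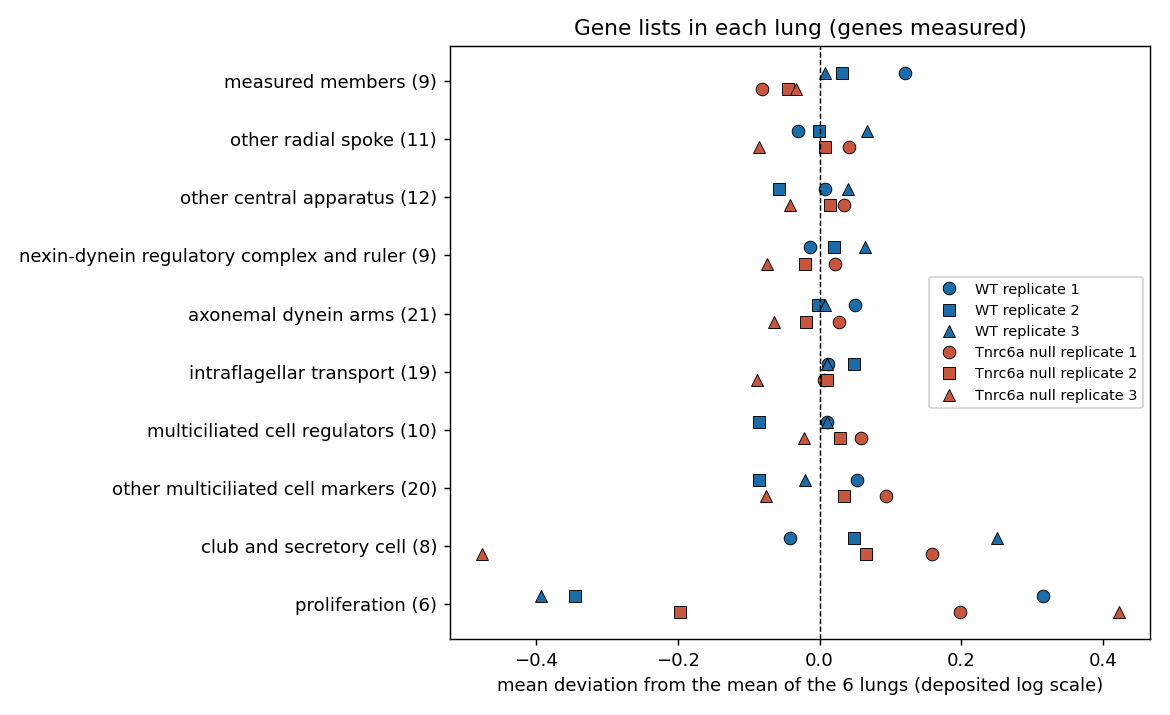
Mean deviation of the genes of each list from their own mean over the 6 lungs, on the deposited log scale, for WT (blue) and *Tnrc6a* null (red) lungs with a marker shape for each replicate number. The spoke, central apparatus and MCC lists lie between -0.085 and 0.121, while club cell and proliferation genes spread from -0.48 to 0.42, with null replicate 3 at these ends.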

How the data were processed

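Total RNA of 6 individual E18.5 lungs was measured on Affymetrix Mouse Gene arrays, and genotype and replicate number were taken from the labels. The authors deposited processed log values (log2 by the labels), 1 for each lung and each of 35045 probe sets. MAS5 is the tool in the submitters' processing notes. Its version, and whether other normalization followed, is not given in the sources read.

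No change was made to the deposited values, with no filter on dim genes. Of the probe sets, 21789 had 1 gene symbol in the platform annotation (21698 of these updated through their Entrez IDs and RefSeq names of GRCm38.p6), 1621 had several and 11635 none. For the 999 genes with more than 1 probe set, the brightest was used. The 19938 genes were fitted with limma 3.58.1 in R 4.3.3 (lmFit, eBayes with a trend), with Benjamini-Hochberg adjustment over all genes and a threshold of 0.05. Unadjusted p-values under 0.05 were counted as a description. The procedure was tested on simulated data. Values of 1 measure a lung were compared by exact permutation with scipy 1.17.1 in Python 3.11.15, with pandas 2.3.3 and matplotlib 3.10.9.

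The members and the gene lists were chosen with earlier results of these data known. Named were all members, *Tnrc6a*, *Foxj1* and up to 2 genes with the smallest p in a list; *Spag6l*, *Cfap221*, *Dnah7a*, *Ift22*, *Ift172* and *Sftpc* were added after their values were seen. The alternatives were quantile normalization, median centring, genes above the median signal, the mean of a gene's probe sets, no trend, weights for each array, a block for the replicate number, the t-test of the methods, each lung left out in turn and 2 lungs left out together. The labels tie each array to 1 embryo but not to litters. The number of arrays limits the precision.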

Additional observations from a re-analysis of the deposited data

How the results depend on the processing

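*Rsph1* stayed lower and was the 1 member at an unadjusted p under 0.05 in all 15 alternatives, in which 3.08% to 14.5% of all genes reached it. Between WT and null lungs of the same replicate number the correlations of the deviations were -0.30, 0.36 and -0.16. Deviations from a mean of 3 lungs depend on each other, so these values cannot decide whether the numbers pair the lungs. With the replicate number as a block the unadjusted p of *Rsph1* was 0.0051, the adjusted p of *Tnrc6a* 0.028 and the count of genes past the adjusted threshold 1, and no call changed. That count was 2 with array weights (*Tnrc6a* and *Mir127*, named after its values were seen), 0 with the t-test of the methods (1102 genes at an unadjusted p under 0.05), 0 to 1 with a lung left out, and 23 without WT replicate 1 and null replicate 3, with no member among the 23. *Tnrc6a* lost its call with that t-test (-1.93, adjusted p = 0.55) and without WT replicate 3 (-1.96, adjusted p = 0.055).

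Of the members, 9 of 9 were lower with median centring, 6 of 9 with array weights and without WT replicate 1 and null replicate 3, 5 of 6 among genes above the median signal, and 5 to 9 of 9 with a lung left out. Their median difference was -0.07 with median centring, -0.0867 above the median signal, -0.0767 to -0.025 with a lung left out and -0.015 without WT replicate 1 and null replicate 3. Groups without overlap are given beside the share of all genes in either direction, 10.2% in the deposited values. They were 2 of 9 with quantile normalization (*Rsph1*, *Spag6*; 9.37%), 2 with median centring (*Rsph1*, *Spef1*; 12%), 1 to 2 with a lung left out (15.9% to 26.7%) and 3 without WT replicate 1 and null replicate 3 (*Rsph1* and *Spef2* lower, *Spag17* higher; 43.6%). *Spag6l* reached an unadjusted p of 0.043 with the t-test of the methods (adjusted p = 0.89). Small differences turned sign. *Rsph9* was -0.0233 with median centring and -0.03 to 0.06 with a lung left out. *Hydin* was 0.000215 with array weights and -0.0767 to 0.00333 with a lung left out. *Spag17* was 0.0453 with array weights, 0.085 without WT replicate 1 and null replicate 3, and -0.0417 to 0.0583 with a lung left out. *Spag6* ran from -0.0283 to 0.00667 with a lung left out and was -0.04 without both, and *Spag16* from -0.0567 to 0.0533 with a lung left out. The cause was not tested. Depth has no meaning for arrays, and signal over background was not measured.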
